A study of Mus musculus with 8 samples.

Results

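Muscle relaxes when calcium is pumped back into the sarcoplasmic reticulum, and the data below follow 10 genes of that step in the soleus, a postural muscle of the calf. They are the calcium pumps Atp2a1 and Atp2a2, the pump regulators Sln and Pln, and the luminal calcium buffers Casq1, Casq2 and Hrc. The others are the cytosolic calcium buffer Pvalb, and Dhrs7c and Sypl2, which encode membrane proteins of the reticulum. The genes were chosen by symbol, and each matched 1 of the 22880 Ensembl gene identifiers in the deposited counts. RNA-seq was done on whole soleus muscle of 4 control mice with a wild-type genotype at Dnm2 and of 4 Dnm2 +/K562E mice, which carry 1 Dnm2 allele with the K562E point mutation in all cells. All 8 mice were male C57BL/6 animals (C57bl/6 J in the study's methods) aged 2 months, and each library came from 1 mouse. The controls were littermates or mice of the same age, and the mutant allele came from gene targeting. Dnm2 encodes dynamin 2, a GTPase that cuts vesicles from membranes, and its counts add the wild-type and the mutant allele. They came to 66.3 ± 4.74 normalized CPM (read counts scaled by library size; mean ± SD, n = 4) in controls and 73.4 ± 2.43 CPM in the mutants (log2 fold change 0.15, adjusted p = 0.0909 in edgeR). Because whole muscle was sequenced, fewer cells of a type and less RNA per cell cannot be told apart at any result below.

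Libraries of controls 1 to 4 held 36384212, 36537889, 48832814 and 35412828 counted reads. There were 33407430, 39015663, 39460486 and 35702196 reads in Dnm2 +/K562E mice 1 to 4. The tissue label was checked with fibre markers, and Myh7, the slow myosin heavy chain, and Myh2, a fast oxidative one, were both abundant in controls (6014 and 9753 CPM). Control 4 stood apart from the other controls. Its Myh4, the myosin heavy chain of the fastest fibres, was at 3134 CPM beside 426.4, 371.6 and 162.8 CPM in controls 1 to 3. Results that rest on this library are given with and without it.

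A muscle fibre contracts when its release channels let calcium out of the reticulum, and it relaxes when pumps driven by ATP return the ion. Atp2a1 encodes the pump of fast fibres and Atp2a2 that of slow fibres and heart. Sarcolipin (Sln) and phospholamban (Pln) are small membrane proteins that bind the pump and slow it, and the phosphorylation of phospholamban relieves its hold. Calsequestrins and the histidine-rich calcium binding protein (Hrc) hold calcium loosely inside the reticulum. Parvalbumin, the product of Pvalb, takes up calcium in the cytosol of fast fibres of the mouse and speeds their relaxation.

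The coding sequences of the regulators are shown because of how short these proteins are, 31 codons in Sln and 52 in Pln. They were taken from GENCODE M21 transcripts (GRCm38). Capitals mark the last 5 codons of Sln before the stop, its luminal tail, and codons 16 and 17 of Pln, the serine and threonine that are phosphorylated. When aligned, 13 of 29 residues were identical.
Sln: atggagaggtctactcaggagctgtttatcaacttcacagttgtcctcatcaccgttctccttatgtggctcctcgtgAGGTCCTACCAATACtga
Pln: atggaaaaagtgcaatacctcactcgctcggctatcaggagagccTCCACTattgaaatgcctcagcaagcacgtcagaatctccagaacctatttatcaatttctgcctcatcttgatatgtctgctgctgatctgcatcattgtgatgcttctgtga

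Genotypes were compared with the quasi-likelihood test of edgeR after TMM normalization, whose scaling factors come from genes with small differences between libraries. The Benjamini-Hochberg adjustment ran over the 14001 genes that passed a filter on low counts. To be called, a gene needed a log2 fold change of 0.58 or more, up or down, with an adjusted p under 0.05. All 10 genes passed the filter. Sln and Pln, the inhibitors of the pump, rose in Dnm2 +/K562E mice, and 5 genes fell, namely Atp2a1, Hrc, Pvalb, Dhrs7c and Sypl2, of which Hrc and Sypl2 were not called when libraries were scaled by fibre markers (described below). Atp2a2, Casq1 and Casq2 were not called. Of all tested genes, 12.9% were called higher and 7.85% lower. With no threshold on the fold change, 9 of the 10 had an adjusted p under 0.05 in edgeR, where 43.8% of all tested genes did. In 9 of the 10 the values of the genotypes did not overlap, and 41.2% of all tested genes showed no overlap. The median log2 fold change was -0.61 over the 10 genes and 0.01 over all tested genes.

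**Figure D1:**
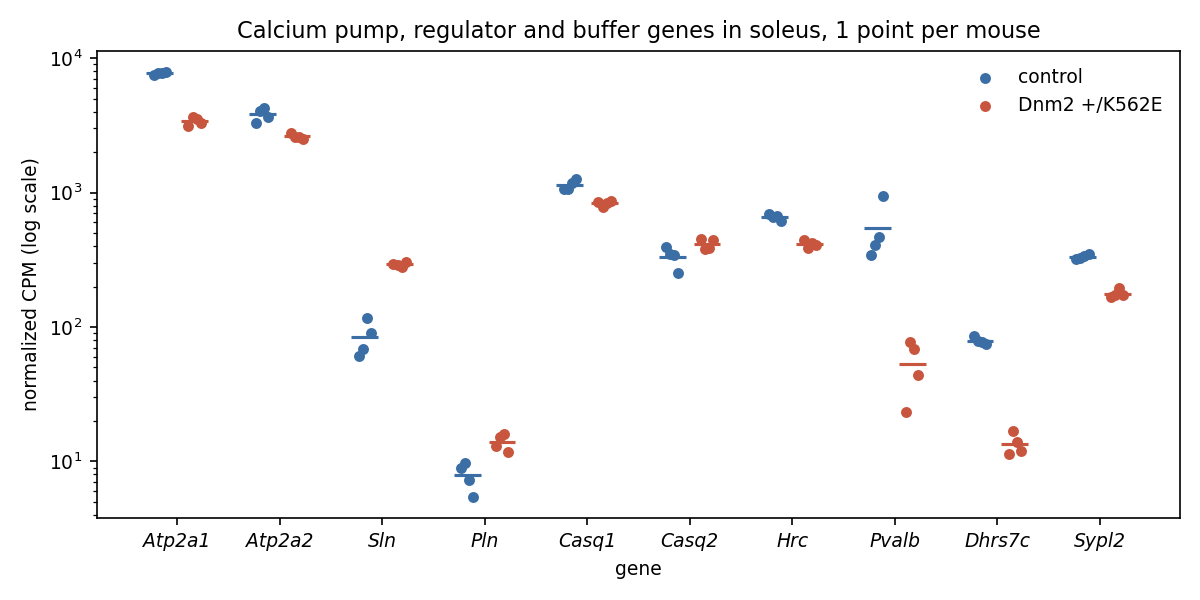
Normalized CPM of the 10 genes in each mouse on a log axis, with controls and Dnm2 +/K562E mice as separate points and a bar at each group's mean. Sln and Pln lie higher and Atp2a1, Hrc, Pvalb, Dhrs7c and Sypl2 lower in Dnm2 +/K562E mice, whereas the Casq2 values of the genotypes overlap.

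Transcripts of the fast pump fell in Dnm2 +/K562E mice, and those of the slow pump were lower without passing the fold threshold. Atp2a1 (chromosome 7, 126445858 to 126463108, minus strand, GRCm38) was at 7461, 7714, 7803 and 7887 CPM in controls 1 to 4. It was at 3126, 3632, 3503 and 3300 CPM in Dnm2 +/K562E mice 1 to 4. Every mutant value lay below every control value, and the spread within a genotype was small. The level went from 7716 ± 184.3 to 3390 ± 222.9 CPM (n = 4 each), 2.28-fold lower, with a log2 fold change of -1.19 (SE 0.07, adjusted p = 1.05e-06 in edgeR). Among all genes Atp2a1 went from rank 12 to rank 23 by mean CPM. The exons of Atp2a1 overlap those of Rabep2 on the opposite strand by 763 bases, but Rabep2 collected 1664 reads over the 8 libraries and Atp2a1 collected 1666825.

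Atp2a2 (chromosome 5, 122453513 to 122502225, minus strand) was at 3315, 4017, 4233 and 3672 CPM in controls 1 to 4. In Dnm2 +/K562E mice 1 to 4 it was at 2752, 2607, 2598 and 2507 CPM. The genotypes did not overlap, and controls 1 and 4 were the lowest of their group. The log2 fold change of -0.54 (SE 0.08, adjusted p = 0.00038 in edgeR) missed the fold threshold, but without control 1 it was -0.61 (adjusted p = 0.000108) and passed. Under the scaling by fibre markers described below it changed direction, to 0.02 (adjusted p = 0.813 in edgeR). The coded proteins of the pumps were identical at 839 of 993 aligned residues, or 84.5%. Of the 31-base stretches in Atp2a2 transcripts, 5.42% also occur in transcripts of other genes, so a small share of its reads could map elsewhere.

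Both inhibitors of the pump rose in Dnm2 +/K562E mice, from very different levels. Sln (chromosome 9, 53850164 to 53854560, plus strand) was at 61.3, 68.6, 116.2 and 90.7 CPM in controls 1 to 4. It was at 292.5, 288.4, 281.8 and 306.6 CPM in Dnm2 +/K562E mice 1 to 4. The lowest mutant value was above the highest control value by more than the range within either genotype, and the mutant mice varied less among themselves (CV 3.59%) than the controls did (CV 29.4%). The mean went from 84.2 ± 24.7 to 292.3 ± 10.5 CPM (n = 4 each), a rise of 3.47-fold with a log2 fold change of 1.79 (SE 0.17, adjusted p = 1.41e-05 in edgeR).

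Pln (chromosome 10, 53337667 to 53345987, plus strand) was a low-abundance transcript in this muscle. It was at 8.94, 9.74, 7.30 and 5.48 CPM in controls 1 to 4 and at 13.1, 15.3, 15.98 and 11.7 CPM in Dnm2 +/K562E mice 1 to 4. These values rest on 186 to 328 reads per control and 434 to 670 reads per mutant mouse. All mutant values were above all control values, and control 4 was the lowest. The log2 fold change was 0.83 (SE 0.17, adjusted p = 0.00238 in edgeR), and without control 4 it was 0.69 (adjusted p = 0.003). The exons of Pln overlap those of Cep85l on the opposite strand by 141 bases. The strand setting of the counting is not given. Cep85l collected 10465 reads over the 8 libraries and Pln collected 3381, and the part of shared reads in the Pln values was not tested. Cep85l was at 40.9 ± 12.8 CPM in controls and 28.4 ± 3.17 CPM in mutants. It was not called, and its values overlapped between genotypes. In all, 59.5% of the 31-base stretches of Pln occur in other transcripts, most of them in Gm47644 at the same locus, which was not among the counted genes.

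Of the luminal buffers, Hrc fell, and neither calsequestrin was called. Calsequestrins bind calcium through acidic residues, and their coding sequences end in a run of aspartate and glutamate codons. The last 30 codons before the stop are shown for Casq1 and Casq2 because the isoforms differ there, with aspartate and glutamate codons in capitals.
Casq1: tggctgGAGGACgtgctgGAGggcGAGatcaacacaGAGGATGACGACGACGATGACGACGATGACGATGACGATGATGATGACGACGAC
Casq2: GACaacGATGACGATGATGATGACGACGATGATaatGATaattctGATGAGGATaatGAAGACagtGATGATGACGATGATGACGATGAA
Acidic codons made up 62.0% of the last 50 codons in Casq1 and 70.0% in Casq2, and 28.4% and 26.6% of the whole coding sequences. Hrc has no such tail, but 30.8% of its codons are acidic and 11.1% code for histidine.

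Casq1, the calsequestrin of skeletal muscle (chromosome 1, 172209894 to 172219868, minus strand), was at 1063, 1065, 1173 and 1257 CPM in controls 1 to 4. It was at 853.3, 776.4, 833.4 and 868.6 CPM in Dnm2 +/K562E mice 1 to 4. All mutant values were lower than all control values, but the log2 fold change of -0.45 (SE 0.07, adjusted p = 0.000529 in edgeR) was under the fold threshold. Under the scaling by fibre markers described below it changed direction, to 0.11 (adjusted p = 0.163 in edgeR). Casq2, the calsequestrin of heart that slow fibres also express (chromosome 3, 102086415 to 102146514, plus strand), was at 392.2, 350.5, 340.4 and 250.9 CPM in controls 1 to 4. In Dnm2 +/K562E mice 1 to 4 it was at 454.5, 382.8, 387.7 and 442.4 CPM. Control 1 lay within the range of the mutants, so the genotypes overlapped. Its log2 fold change was 0.32 (SE 0.12, adjusted p = 0.0513 in edgeR), and without control 4 it was 0.20 (adjusted p = 0.0774). Apart from the fibre scaling described below, the adjusted p of Casq2 lay on either side of 0.05 depending on the setting. It ran from 0.0028 with library size alone (log2 fold change 0.54) to 0.128 without mutant 1, both in edgeR. It was 0.0375 in the exact test of edgeR, 0.0348 in DESeq2 and 0.0167 without control 1 in edgeR, and no setting other than the fibre scaling described below brought Casq2 past the fold threshold.

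Hrc (chromosome 7, 45335290 to 45338974, plus strand) was at 697.4, 658.6, 664.0 and 619.2 CPM in controls 1 to 4. It was at 440.1, 389.2, 419.2 and 410.3 CPM in Dnm2 +/K562E mice 1 to 4. The genotypes did not overlap, with the mutants 1.59-fold lower (log2 fold change -0.67, SE 0.06, adjusted p = 1.38e-05 in edgeR). When libraries were scaled by their size alone, the log2 fold change of Hrc was -0.46 (adjusted p = 0.000126) and missed the fold threshold.

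The change of greatest size among the 10 genes was that of Pvalb (chromosome 15, 78191114 to 78206400, minus strand). It was at 341.5, 407.0, 469.1 and 946.1 CPM in controls 1 to 4. It was at 23.5, 76.9, 68.9 and 44.0 CPM in Dnm2 +/K562E mice 1 to 4. The lowest control was far above the highest mutant, although values varied widely within each genotype (CV 50.9% in controls and 45.6% in mutants). Pvalb was 10.1-fold lower in mutants, with a log2 fold change of -3.34 (SE 0.41, adjusted p = 8.69e-05 in edgeR). Control 4 had the highest Pvalb, and without it the remaining 3 controls averaged 405.9 ± 63.8 CPM and Pvalb was 7.65-fold lower (log2 fold change -2.93, adjusted p = 6.89e-05).

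Of the 9 fast fibre markers 6 were called lower, beside 7.85% of all tested genes. Myh1 (log2 fold change -0.13), Myl1 (-0.20) and Mylpf (-0.07) were not called and overlapped between genotypes. Myh4 and Actn3, chosen after their values were seen, are given beside Pvalb. Myh4 was at 426.4, 371.6, 162.8 and 3134 CPM in controls 1 to 4 and at 34.9, 34.0, 45.9 and 50.9 CPM in Dnm2 +/K562E mice 1 to 4. Actn3, the alpha-actinin of fast fibres, was at 235.9, 293.6, 389.2 and 757.7 CPM in controls 1 to 4 and at 144.0, 173.4, 149.6 and 153.0 CPM in mutants 1 to 4. Control 4 was highest in both, as in Pvalb. Actn3 ordered the controls as Pvalb did, whereas Myh4 was lowest in control 3. Myh4 fell by 4.63 (adjusted p = 0.00119) and Actn3 fell by 1.43 (adjusted p = 0.00257) on the log2 scale in edgeR. Without control 4 the log2 fold change was -2.96 for Myh4 (adjusted p = 2.64e-05), which is 7.76-fold lower in place of 24.7-fold, and -0.99 for Actn3 (adjusted p = 0.000387). Control 4 also had the highest Casq1 and the lowest Casq2 and Pln among controls. The part that the share of the fastest fibres has in the Pvalb result was not tested.

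**Figure D2:**
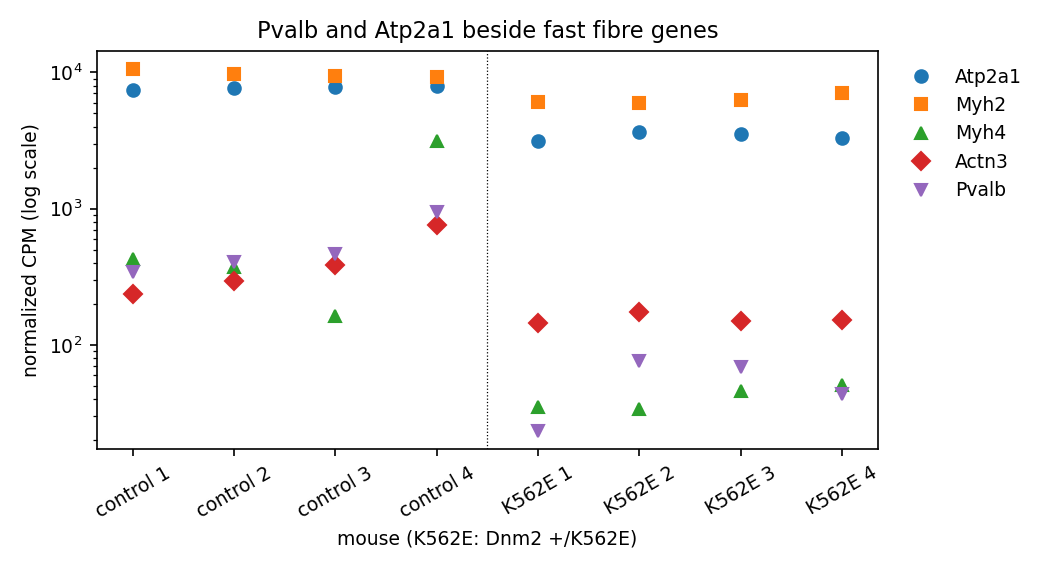
Pvalb and Atp2a1 beside the fast fibre genes Myh2, Myh4 and Actn3 in each mouse, as normalized CPM on a log axis. Pvalb, Myh4 and Actn3 are all highest in control 4, and for each gene all 4 Dnm2 +/K562E mice lie below all 4 controls.

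Transcripts of Dhrs7c and Sypl2, the membrane proteins of the reticulum, fell in Dnm2 +/K562E mice. Dhrs7c, a member of the short-chain dehydrogenase family in the reticulum membrane (chromosome 11, 67798187 to 67816002, plus strand), was at 85.3, 79.2, 77.1 and 74.6 CPM in controls 1 to 4. It was at 11.4, 16.8, 14.1 and 12.0 CPM in Dnm2 +/K562E mice 1 to 4. The gap between the genotypes was many times the spread within them. Dhrs7c was 5.81-fold lower (log2 fold change -2.54, SE 0.12, adjusted p = 2.32e-07 in edgeR) and ranked 15 of the 14001 tested genes by p-value. Sypl2, or mitsugumin 29, a protein of the triad where the reticulum meets the transverse tubule (chromosome 3, 108211472 to 108226648, minus strand), was at 318.5, 326.7, 336.2 and 348.9 CPM in controls 1 to 4. It was at 166.0, 173.5, 194.4 and 173.8 CPM in Dnm2 +/K562E mice 1 to 4. It thus came to 1.88-fold lower, with no overlap (log2 fold change -0.91, SE 0.06, adjusted p = 2.37e-06 in edgeR). Under the scaling by fibre markers described below, the log2 fold change of Sypl2 was -0.35 and it was not called.

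To compare levels between genes, CPM were divided by exon length in kilobases. In controls Atp2a1 led with 2219 CPM per kb, followed by Atp2a2 at 626.4, Casq1 at 584.0 and Pvalb at 519.6 CPM per kb. The ranges of Atp2a2 and Casq1, and of Casq1 and Pvalb, overlapped between mice, so these neighbours had no clear order. Below them came Hrc at 257.1, Casq2 at 121.9, Sypl2 at 75.98, Sln at 63.9, Dhrs7c at 42.1 and Pln at 2.85 CPM per kb, and the ranges of Sypl2 and Sln overlapped. In Dnm2 +/K562E mice Atp2a1 still led with 975.1 CPM per kb, and Atp2a2 at 430.2 and Casq1 at 426.9 CPM per kb overlapped. Sln moved from rank 8 to rank 4 of the 10, at 221.8 CPM per kb. Pvalb moved from rank 4 to rank 7, at 51.2 CPM per kb, and overlapped with Sypl2 at 40.4. Hrc at 161.6 and Casq2 at 152.4 overlapped as well, and Dhrs7c at 7.23 and Pln at 5.08 CPM per kb remained at the bottom.

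The ratio of a pair of genes within 1 library does not depend on how that library is scaled, so it was formed for the 3 pairs of related members. The log2 ratio of Atp2a1 to Atp2a2, from counts per kb, was 1.98, 1.75, 1.69 and 1.91 in controls 1 to 4 and 0.99, 1.29, 1.24 and 1.20 in Dnm2 +/K562E mice 1 to 4. The genotypes did not overlap, and the mean ratio went from 3.56 to 2.26. The log2 ratio of Casq1 to Casq2 was 1.93, 2.09, 2.27 and 2.81 in controls and 1.40, 1.51, 1.59 and 1.46 in mutants. This ratio was lower in every mutant than in every control, at 2.81 against 4.84 on average. Control 4 had the highest value, and without it the difference of the log2 means went from -0.79 to -0.61. The log2 ratio of Sln to Pln was 3.84, 3.88, 5.06 and 5.11 in controls and 5.55, 5.31, 5.20 and 5.77 in mutants. It did not overlap either (mean ratio 22.2 in controls and 44.0 in mutants), but controls 3 and 4 came close to the mutants. The difference of the log2 means was 0.985 with all mice, 1.20 without control 4, 0.775 without control 1 and 0.788 without control 2. Of both pumps together, Atp2a1 thus made up 78.1% in controls and 69.4% in mutants, and of both calsequestrins Casq1 made up 82.9% and 73.7%. These shares and the mean ratios depend on the exon lengths used, which merge all annotated transcripts, whereas the differences of the log2 means do not. No p-value is given for these ratios because the genes were chosen with earlier results known.

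**Figure D3:**
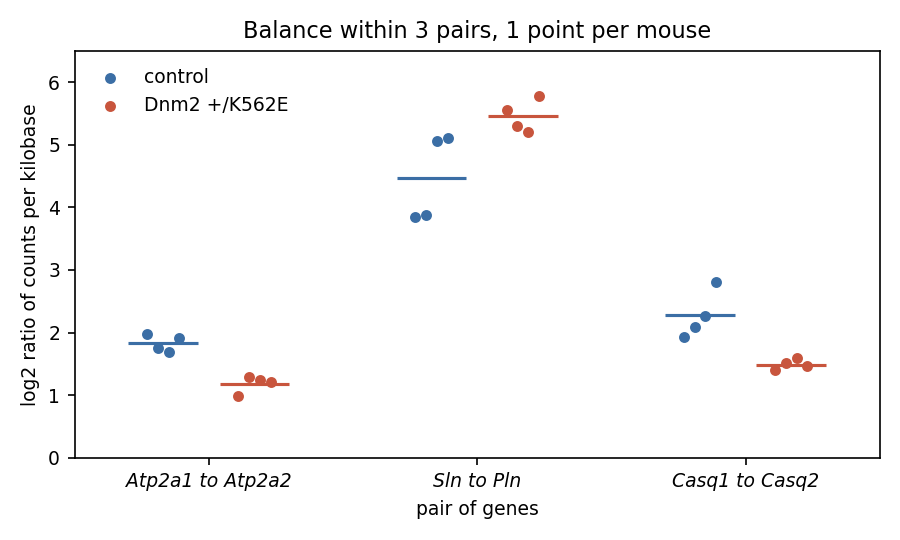
Log2 ratio of counts per kb for the 3 pairs of related genes in each mouse, with a bar at each group's mean. The ratios of Atp2a1 to Atp2a2 and of Casq1 to Casq2 are lower and that of Sln to Pln is higher in every Dnm2 +/K562E mouse than in every control.

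The summed markers of mature slow and fast fibres were lower in Dnm2 +/K562E mice. The summed CPM of 7 slow fibre markers was 19420, 19840, 22140 and 18690 in controls 1 to 4 and 12200, 13060, 14400 and 11150 in mutants 1 to 4. The sum of 9 fast fibre markers was 39390, 38590, 39660 and 41220 in controls and 26340, 26390, 26970 and 31530 in mutants. Of these markers 3 of 7 slow and 6 of 9 fast ones were called lower, beside 7.85% of all tested genes. The most abundant were Myh7, which went from 6014 to 4193 CPM, and Myh2, which went from 9753 to 6343 CPM. Because of this, the comparison was repeated with libraries scaled to a common sum of the 16 fibre markers, an alternative added after these sums were seen. This scaling moved the median log2 fold change of all tested genes from 0.01 to 0.57.

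Per fibre marker transcript, the fall of Atp2a1, Pvalb and Dhrs7c and the rise of Sln and Pln were still called. The log2 fold changes were -0.62 for Atp2a1, -2.78 for Pvalb, -1.98 for Dhrs7c, 2.36 for Sln and 1.39 for Pln. Casq2 was called higher on this scale (log2 fold change 0.88, adjusted p = 8.09e-05 in edgeR). Hrc (-0.11, adjusted p = 0.193) and Sypl2 (-0.35, adjusted p = 0.000371) were no longer called. The direction of Atp2a2 turned from -0.54 to 0.02 (adjusted p = 0.813) and that of Casq1 from -0.45 to 0.11 (adjusted p = 0.163). With library size alone all 10 genes kept their direction, and the median of all genes was 0.22.

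**Figure D4:**
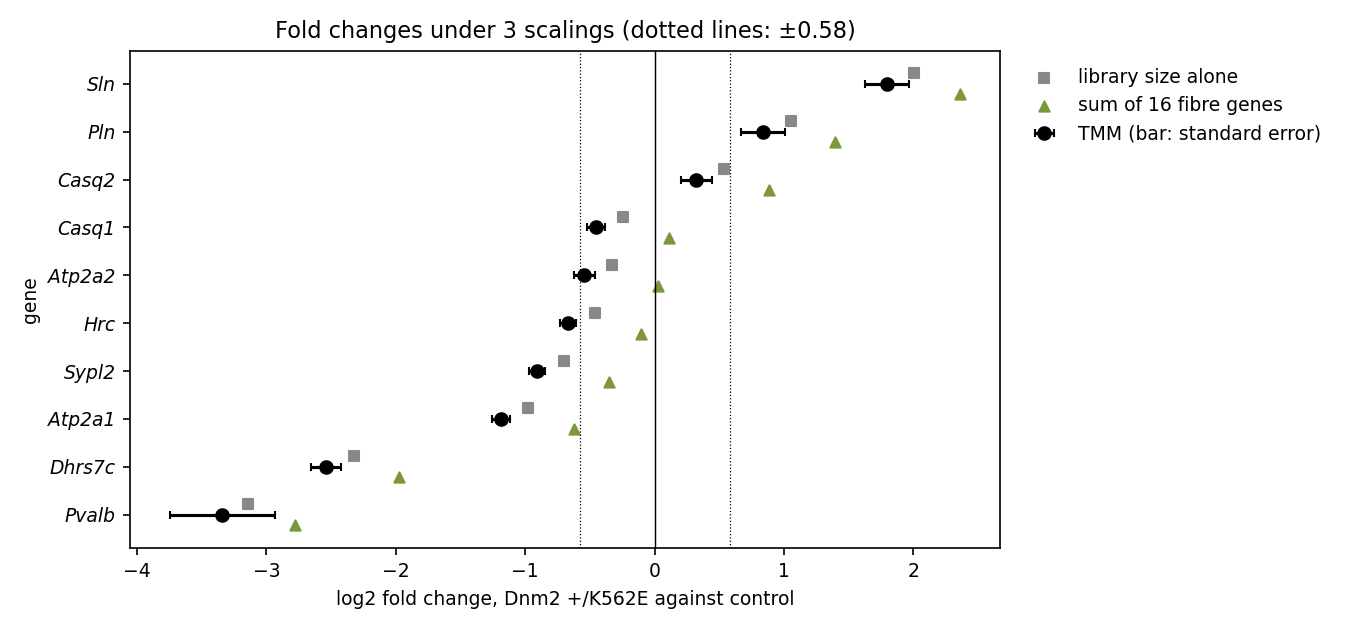
Log2 fold change of each gene, Dnm2 +/K562E against control, under TMM (circles with standard error), library size alone (squares) and the sum of 16 fibre markers (triangles), with dotted lines at the fold threshold. Sln and Pln lie to the right and Atp2a1, Dhrs7c and Pvalb to the left past the threshold under all 3 scalings, whereas Atp2a2 and Casq1 are below 0 under TMM and library size and above 0 under the fibre scaling.

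Further genes of calcium handling were taken from a list of 47, of which 43 had an identifier and 40 passed the filter. Of these, 2 were called higher and 5 lower, beside 12.9% and 7.85% of all tested genes, with a median log2 fold change of -0.19 beside 0.01 over all tested genes. In the machinery of voltage sensing and calcium release 2 of 9 genes rose and 4 fell, and none of the 9 overlapped between genotypes, beside 41.2% of all tested genes without overlap. Cacng1, a subunit of the voltage sensor, was at 55.4, 57.9, 56.7 and 63.7 CPM in controls 1 to 4 and at 134.0, 107.1, 126.4 and 124.2 CPM in mutants 1 to 4. It rose with a log2 fold change of 1.07 (SE 0.08, adjusted p = 2.79e-06 in edgeR). Ryr3, a minor release channel, was at 0.74, 1.81, 1.23 and 1.86 CPM in controls and 2.20, 2.56, 2.62 and 3.08 CPM in mutants. Its log2 fold change of 0.89 (adjusted p = 0.0212) rests on few reads, and the call was lost without control 3 or without mutant 4.

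Jph1, a junctophilin that ties the reticulum to the transverse tubule, was at 180.4, 172.2, 190.7 and 188.2 CPM in controls 1 to 4 and at 93.5, 95.7, 95.4 and 97.7 CPM in mutants 1 to 4. Stac3, which is needed for the coupling of voltage sensor and release channel, was at 157.0, 193.1, 182.0 and 188.1 CPM in controls and 90.2, 81.1, 84.2 and 81.1 CPM in mutants. In both genes every mutant value lay below every control value, with log2 fold changes of -0.94 (adjusted p = 8.58e-07) and -1.10 (adjusted p = 1.83e-06) in edgeR. Jph2 (-0.80) and Ryr1, the main release channel (-0.63), were also called lower, and the call of Ryr1 was lost without mutant 1 (-0.56) and with library size alone (-0.42). Among 8 genes of the reticulum membrane and lumen, Tmem38a, a potassium channel of the reticulum, fell from 1347 ± 69.6 to 749.9 ± 28.3 CPM (log2 fold change -0.84, adjusted p = 2.93e-06 in edgeR). Under the scaling by 16 fibre markers the calls of Jph1, Stac3, Jph2, Ryr1 and Tmem38a were all lost.

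Other groups held no called gene in edgeR. Of 8 genes of calcium entry and extrusion at the surface, 2 were higher and 3 lower at an unadjusted p under 0.05 in edgeR, and DESeq2 called none. Of all tested genes, 26.3% were higher and 25.5% lower at this p, so 5 of 8 is near the background. Of 4 tested cytosolic calcium binding genes 3 were lower at an unadjusted p under 0.05, among them S100a1 (log2 fold change -0.15). DESeq2, which also tested Calb1, called that gene lower from 48 reads in all. Of 6 genes of calcineurin and NFAT 3 were lower at an unadjusted p under 0.05, and DESeq2 called none of them. Of the genes of mitochondrial calcium uptake, the channel Mcu (0.45, adjusted p = 0.000219) and its regulator Micu2 (0.51, adjusted p = 0.00015) were higher but under the fold threshold, and Smdt1 was at -0.16. DESeq2 called neither Mcu nor Micu2, but both were called higher with library size alone and under the scaling by 16 fibre markers. The third pump gene, Atp2a3, was at 35.5 ± 2.63 CPM in controls and 29.2 ± 2.97 CPM in mutants (log2 fold change -0.28, adjusted p = 0.0202 in edgeR).

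**Figure D5:**
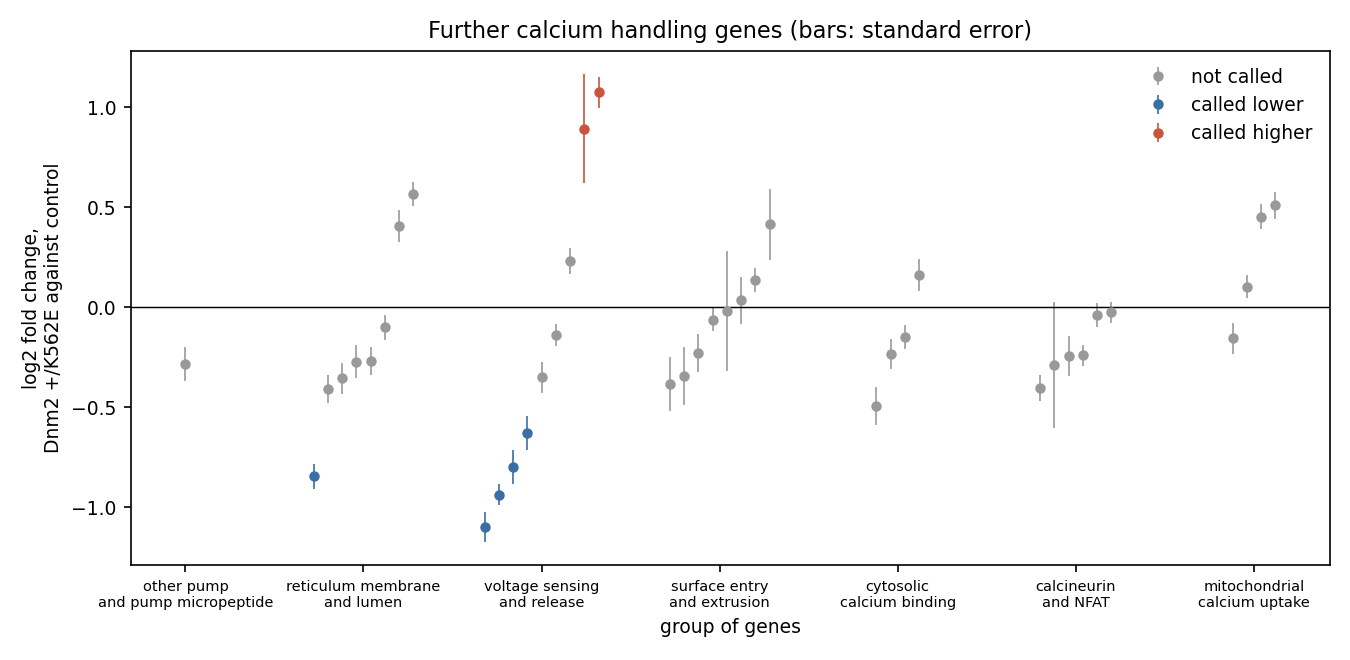
Log2 fold change of 40 further calcium handling genes by group, with bars for the standard error and colours for called genes. Both genes called higher and 4 of the 5 called lower belong to voltage sensing and release, and Tmem38a is the remaining one; under the scaling by 16 fibre markers none of the 5 was called lower.

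Several members are also known from other cells, so markers of those cells were read in the same libraries. Atp2a2, Pln, Casq2 and Sln are expressed in heart. The sum of 7 heart markers was 69.2, 63.6, 68.7 and 64.2 CPM in controls 1 to 4 and 90.5, 80.9, 90.0 and 90.7 CPM in mutants 1 to 4. Its most abundant gene, Myh6, was at 58.04 CPM in controls and 48.03 CPM in mutants. Myl7, Nppa, Nppb and Tnni3 were under 1 CPM in every mouse, and Nppb had no read in controls. Of 5 tested heart markers 2 were called higher, Nppb and Tnnt2, beside 12.9% of all tested genes. Nppb passed the filter on low counts through the mutants alone, so its direction was fixed in advance and its call is no support. Tnnt2, which immature muscle also expresses, went from 7.03 to 38.3 CPM. Myh6 was lower without being called (log2 fold change -0.27, adjusted p = 0.0176 in edgeR).

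Atp2a2 and Pln are also expressed in smooth muscle, whose 5 markers summed to 514.9, 660.4, 584.8 and 580.2 CPM in controls and 347.8, 372.3, 359.0 and 379.2 CPM in mutants. Of these 4 were called lower, beside 7.85% of all tested genes (5 without control 4). The most abundant, Acta2, was at 186.4 and 105.6 CPM. Immature fibre markers had a mean sum 9.06-fold higher in mutants, with 81.8, 71.9, 82.8 and 83.1 CPM in controls and 874.8, 654.4, 593.5 and 771.7 CPM in mutants. Of 6 markers 5 rose, beside 12.9% of all tested genes called higher. Myh3, the embryonic myosin heavy chain, was the most abundant at 23.1 and 330.3 CPM. Sln is known to be expressed in developing muscle, and the part of immature fibres in its rise was not tested.

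Pvalb is also expressed in some neurons. Gad1 and Gad2, which only part of these neurons express, were under 1 CPM in every mouse, with 29 reads and 1 read in all. These genes cannot show whether other neurons with Pvalb added RNA, which was not tested. The list of 5 genes of these neurons and Schwann cells summed to between 85.8 and 96.5 CPM in controls and between 70.6 and 94.6 CPM in mutants and overlapped. All 6 macrophage markers and all 5 matrix fibroblast markers were called higher, beside 12.9% of all tested genes. Their most abundant genes were Csf1r (33.3 and 75.3 CPM) and Col3a1 (708.3 and 1569 CPM). The macrophage sums lay between 68.1 and 125.3 CPM in controls and between 146.4 and 246.2 CPM in mutants. For matrix fibroblasts they lay between 1949 and 2867 CPM in controls and between 4604 and 6009 CPM in mutants. The sum of 4 endothelial markers, led by Cdh5, lay between 810.4 and 849.9 CPM in controls and between 576.3 and 661.6 CPM in mutants. Of these markers 1 was called lower, beside 7.85% of all tested genes. The part of these cells in the results above was not tested.

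Promoter windows of 300 bases, from 250 before to 50 after a transcription start, were found in RefSeq (GRCm38.p6) for 7 of the 10 genes, as 8 windows. An E-box, CANNTG, the motif read by myogenic factors, occurred in 7 of the 8 windows and in 72.3% of 32851 windows of the table. TATAAA occurred in 1 window, that of Pln, and in 13.6% of all windows, and the CArG box occurred in none and in 1.63% of all. The MEF2 site occurred in the windows of Casq2 and of a Pvalb start and in 3.19% of all windows. Both strands were searched, and a MEF2 site can contain TATAAA. These windows are shown because the genes moved differently, Pvalb falling and Casq2 not called. They cover chr15:78206351-78206650, minus strand, for Pvalb and chr3:102086165-102086464, plus strand, for Casq2. Capitals mark the MEF2 site in Pvalb, and the MEF2 site and both E-boxes in Casq2.
Pvalb: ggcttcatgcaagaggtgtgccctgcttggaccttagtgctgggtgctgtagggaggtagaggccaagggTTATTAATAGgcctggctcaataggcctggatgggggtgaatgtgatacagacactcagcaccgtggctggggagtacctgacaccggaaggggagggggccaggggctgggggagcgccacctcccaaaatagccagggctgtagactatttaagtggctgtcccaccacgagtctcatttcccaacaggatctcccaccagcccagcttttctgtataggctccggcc
Casq2: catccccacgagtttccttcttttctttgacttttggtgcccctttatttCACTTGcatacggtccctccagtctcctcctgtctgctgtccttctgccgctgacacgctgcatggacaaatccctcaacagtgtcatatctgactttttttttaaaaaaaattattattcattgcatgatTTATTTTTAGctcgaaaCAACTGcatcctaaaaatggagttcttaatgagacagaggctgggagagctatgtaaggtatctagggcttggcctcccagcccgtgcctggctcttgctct
Such matches describe the letters of the window and do not show binding.

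For each member the tested gene with the most similar pattern was sought, by the Pearson correlation of log2 CPM over the 8 mice, which share the difference between genotypes. The nearest genes were Osgepl1 for Atp2a1 (r = 0.998) and also for Dhrs7c (r = 0.997), Mettl22 for Atp2a2 (r = 0.992), B4galt2 for Sln (r = 0.994) and Hdc for Pln (r = 0.972). For the buffers they were Nup35 for Casq1 (r = 0.987), Tmem116 for Casq2 (r = 0.966), Fitm2 for Hrc (r = 0.996) and Frat2 for Pvalb (r = 0.992). Sypl2 was nearest to Prag1 (r = 0.996). Within the set, Dhrs7c was also close to Atp2a1 (r = 0.997).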

How the data were processed

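RNA-seq libraries of soleus from 4 control and 4 Dnm2 +/K562E mice were analysed. The authors trimmed reads with Trimmomatic 0.33, aligned them to GRCm38.p5 with STAR 2.5.1b and deposited featureCounts read counts per gene and mouse, without normalization. Reads were counted for each gene they overlapped and multi-mapping reads at their primary alignment, so genes that overlap or resemble others can share or lose reads. The strand setting is not given in the sources used here, and the study's methods and the labels name different library kits. Per the labels each mouse is a separate animal.

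Of 22880 identifiers, 22570 were matched to GENCODE M21. The filter of edgeR 4.0.16 in R 4.3.3 left 14001 genes. It asked for a CPM matching about 10 counts in at least 4 libraries, and for 15 counts in total. TMM factors, the quasi-likelihood test and Benjamini-Hochberg adjustment followed, with the fold threshold of the study. SE is that implied by the F statistic. Ratios used a pseudocount of 0.5. DESeq2 1.42.0, other scalings, filters, replicate blocks and leaving out each mouse were alternatives. The fit was tested on simulated data. Chi-square tests between libraries of a genotype gave at least 13.03 for each degree of freedom, more than counting noise alone, so no library was merged.

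The members, the lists of pathway and marker genes and the tests were chosen with earlier results of these data known. Named genes were the members, Dnm2, up to 2 called genes with the smallest p in each direction per pathway group, every tested gene of groups of 5 or fewer, the most abundant gene of each marker list and its genes near 0, and the gene most similar to each member. Jph2, Ryr1, S100a1, Tnnt2, Actn3, Myh1, Myh4, Myl1, Mylpf, Calb1, Calb2, Ocm, Rabep2, Cep85l and Gm47644 were named after their values were seen. Some genes that this rule names are not reported here. Mrln, Strit1, Arln and Erln were not analysed here.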

Additional observations from a re-analysis of the deposited data

Results flagged for a closer look

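In 4 of 44 sets of 4 mice of a genotype, 1 mouse lay far from the other 3 by Dixon's criterion, and chance gives about 1 in 20. The summed fast fibre markers were at 31530 CPM in Dnm2 +/K562E mouse 4 and between 26340 and 26970 CPM in the other mutants. The summed immature fibre markers were at 71.93 CPM in control 2 and between 81.75 and 83.11 CPM in the other controls. The summed heart markers were at 80.88 CPM in Dnm2 +/K562E mouse 2 and between 90.01 and 90.7 CPM in the other mutants. The summed macrophage markers were at 125.3 CPM in control 4 and between 68.08 and 71.22 CPM in the other controls.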

How the results depend on the processing

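Of 160 comparisons of a member under the alternatives other than the fibre scaling, 158 kept their direction and their call, which takes both thresholds. The exceptions were Hrc with library size alone (log2 fold change -0.46) and Atp2a2 without control 1 (-0.61). By the adjusted p alone, Casq2 (0.0513 in edgeR) came under 0.05 in 6 of the 16 alternatives other than the fibre scaling. Under the scaling by 16 fibre markers, added after the data were seen, 5 of 10 kept both, and Atp2a2 (0.0229) and Casq1 (0.11) changed direction. That scaling called 3 members lower and 3 higher. Of the 40 further calcium handling genes it called 12 higher and 0 lower in edgeR, with 4 lower at an unadjusted p under 0.05, and DESeq2 was not run with it. For these genes library size alone called 7 higher, and leaving out the fold threshold gave 7 higher and 16 lower. With each mouse left out in turn, 1 to 3 were called higher and 4 to 6 lower, and the lowest count of higher calls was reached without control 3 or Dnm2 +/K562E mouse 4. Over all genes, 2865 were called higher and 564 lower with library size alone, and 6494 and 209 under the fibre scaling, against 1806 and 1099 with TMM. The cause was not tested.

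Mice of the same number in the titles did not deviate together (r from -0.21 to 0.01). By the numbers in the descriptions they did not do so consistently either (r from -0.17 to 0.18). With a single control and mutant mouse per number, this cannot exclude a shared litter or shared handling. The main comparison assumed no pairing. A replicate block by title number gave 2 members called higher and 5 lower, and Atp2a1 at -1.19 (adjusted p = 7.44e-05) and Casq2 at 0.34 (adjusted p = 0.0615) in edgeR. Either block changed no call of a member, and over all genes the block by title number called 1637 higher and 1036 lower. Pln and Ryr3 had the fewest reads of the called calcium genes, and the part of read depth in their results was not tested.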

Other observations

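Among cytosolic calcium buffers related to or resembling parvalbumin, Ocm and Calb2 had 0 of 304753518 reads over the 8 libraries, which allows at most 0.00984 CPM, counting error only. Calb1 had 48 reads in all.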
